A study of Bos taurus with 8 samples.

Results

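Calpain 1 (CAPN1) and calpastatin (CAST) were followed across 8 cattle tissues, each represented by 1 RNA-Seq library. The 2 genes were located by their intervals in the UMD3.1 assembly, and a row of the expression table was taken for each, out of 24886 rows with a named gene among 36801 rows in all. The libraries represented 3 parts of the digestive tract (rumen, abomasum and ileum), whole testes, intercaruncular uterus, mammary parenchyma (called mammary gland here), frontal cortex and nucleated blood cells. The labels name no treatment, and the study describes its animals as a Hereford cow and her progeny or relatives. For its methylation samples of these tissues, the study lists testes, uterus and blood cells as adult, rumen as fetal and the others as juvenile, with testes and rumen from males. The labels of the RNA libraries give no animal, sex or age, so tissue cannot be told apart from animal, sex or stage in any comparison here. The libraries held a scaled depth of 6059000 to 15583000 reads, recovered approximately from the values of very short loci, and 3 reads on 1000 bases of transcript corresponded to 0.193 to 0.495 FPKM. With 1 library per tissue there is no spread between replicates, no test between tissues was run, and a whole-tissue level cannot separate fewer cells of a type from less RNA per cell.

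Calpain 1 is the catalytic subunit of µ-calpain, a cysteine protease that is activated by calcium and cuts selected proteins at a limited number of sites. It works together with a small regulatory subunit shared with the related m-calpain. Calpastatin is the dedicated endogenous inhibitor of both proteases and blocks them through a series of repeated inhibitory domains. In cattle the pair is best known from skeletal muscle, where calpain activity after slaughter is linked to meat tenderness, but both genes are active in many tissues. A shorter calpastatin transcript that starts within the gene is known from male germ cells. Skeletal muscle is not among the 8 tissues.

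The interval of CAPN1 on chromosome 29 runs from 44063463 to 44113492, and that of CAST on chromosome 7 from 98444979 to 98581253. In both cases the largest overlap was shared by 2 rows, because the table gives overlapping genes the span of their whole cluster. At CAPN1 the rows of ENSBTAT00000011678 and ENSBTAT00000061695 both carry the span 44063283 to 44089992, which covers 53.0% of the interval. The row of ENSBTAT00000061695 is listed at 0 in all 8 libraries, and the row of ENSBTAT00000011678 was taken for CAPN1. A further row in this interval, ENSBTAT00000013515 at 44092127 to 44114038, was listed at 0.165 FPKM in ileum, at 0.0867 in nucleated blood cells and at 0 elsewhere, below the 3 reads on 1000 bases that a count of 0 allows. In the RefSeq annotation of the later assembly ARS-UCD2.0, a microRNA gene (MIR2407) lies within CAPN1 and SLC22A20 is the next gene, but the table does not pair these names with its rows.

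At CAST, 2 rows carry the span 98444810 to 98618194, which covers 100% of the interval. The row that names 4 transcripts (ENSBTAT00000011029, ENSBTAT00000027864, ENSBTAT00000037077 and ENSBTAT00000065978) was taken for CAST, and the other names ENSBTAT00000018026 alone. This choice between tied rows was made after the values had been seen. In RefSeq CAST has 16 transcripts and its next gene, ERAP1, has 6, and the table does not say which of the rows either gene belongs to. Values below are therefore those of the chosen rows, and they do not separate one calpastatin transcript from another. Both chosen rows had an estimate marked as usable in all 28 pairs of tissues.

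CAPN1 was highest in uterus and lowest in whole testes. Its level was 139.9 FPKM in uterus (95% counting interval 133 to 147) and 14.7 FPKM in whole testes (12.5 to 17.2). FPKM counts sequenced fragments relative to the length of the transcript and the size of the library, and the intervals were computed as if 1000 bases of each transcript could be sampled, which is shorter than either mRNA. Between these ends lay rumen at 113.7 FPKM, nucleated blood cells at 108.1, ileum at 68.5, mammary gland at 57.6, abomasum at 56.1 and frontal cortex at 41.2. The level in uterus was 9.50 times that in whole testes, and whole testes stood 2.80-fold below frontal cortex, the next lowest tissue.

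The order of CAPN1 held steps of unequal size. Rumen and nucleated blood cells, ileum and mammary gland, and mammary gland and abomasum could not be separated by counting error alone, since their intervals overlapped. Uterus exceeded rumen by 1.23-fold, blood cells exceeded ileum by 1.58-fold and abomasum exceeded frontal cortex by 1.36-fold, each without overlap of the counting intervals. Over all 17484 genes that reached 1 FPKM in some tissue, uterus was the highest tissue for 7.46% and whole testes the lowest, with no tie, for 12.3%.

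In the chosen row CAST had a different order, with its highest level in whole testes and its lowest in frontal cortex. It reached 67.2 FPKM in whole testes (62.3 to 72.4) and 10.5 FPKM in frontal cortex (8.55 to 12.8). Rumen held 56.1 FPKM, nucleated blood cells 55.9, abomasum 38.2, ileum 34.2, mammary gland 30.2 and uterus 15.5. The highest level was thus 6.38 times the lowest, and the uterus, where CAPN1 was at its highest, stood next to last for CAST. The place of testes depends on the row, and the other tied row may be that of the next gene. With all named rows of the interval summed, blood cells were highest at 81.7 FPKM and testes followed at 69.4. In the other tied row ileum was highest at 33.0 and testes were next to last at 2.18. Frontal cortex was lowest in each case.

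Rumen and blood cells, abomasum and ileum, and ileum and mammary gland had overlapping counting intervals for CAST. Mammary gland exceeded uterus by 1.95-fold and uterus exceeded frontal cortex by 1.47-fold, without overlap. Whole testes were the highest tissue for 30.8% of the 17484 genes and frontal cortex the lowest, with no tie, for 16.0%, so neither end of the CAST order is rare among genes.

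**Figure D1:**
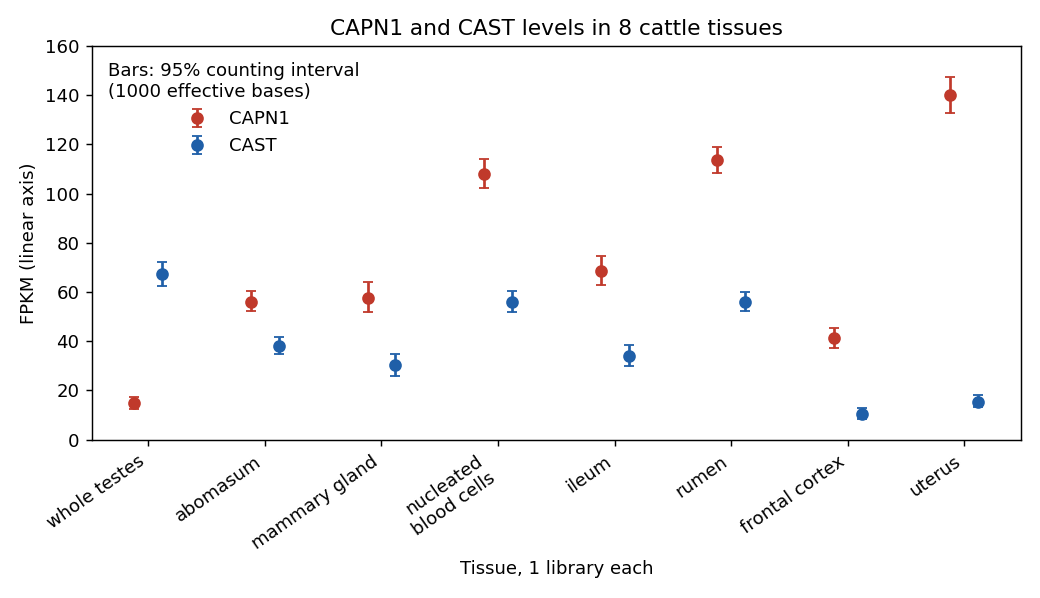
Levels of CAPN1 (red) and CAST (blue) in FPKM on a linear axis, 1 library per tissue, with tissues ordered by the CAST to CAPN1 ratio; bars are 95% counting intervals for 1000 effective bases. CAPN1 runs from 14.7 in whole testes to 139.9 in uterus, and CAST lies above CAPN1 only in whole testes.

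The balance of inhibitor and protease was then expressed as the FPKM of CAST divided by that of CAPN1 within each library. This ratio of levels per length does not depend on the scaling between libraries. It was 4.57 in whole testes (95% exact binomial interval from counting, 3.83 to 5.49) and below 1 in the 7 other tissues. Abomasum had the second highest ratio, 0.682 (0.608 to 0.763). Mammary gland followed with 0.524 (0.436 to 0.629) and nucleated blood cells with 0.517 (0.470 to 0.568). Ileum, with 0.499 (0.428 to 0.581), and rumen, with 0.494 (0.454 to 0.535), were close behind. Mammary gland, blood cells, ileum and rumen thus lay within a narrow band with overlapping intervals. The interval of abomasum overlapped that of mammary gland and lay above those of blood cells, ileum and rumen.

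Frontal cortex and uterus fell below these tissues. The ratio was 0.256 in frontal cortex (0.203 to 0.320), where both genes were low and their FPKM summed to 51.7, the smallest sum of the 8 tissues. It was 0.111 in uterus (0.0930 to 0.130), where CAPN1 exceeded CAST by 9.04-fold. The largest sum, 169.8, was found in rumen, with a ratio of 0.494. From the top of the order to the bottom the ratio spanned 41.3-fold, and without whole testes it spanned 6.16-fold.

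**Figure D2:**
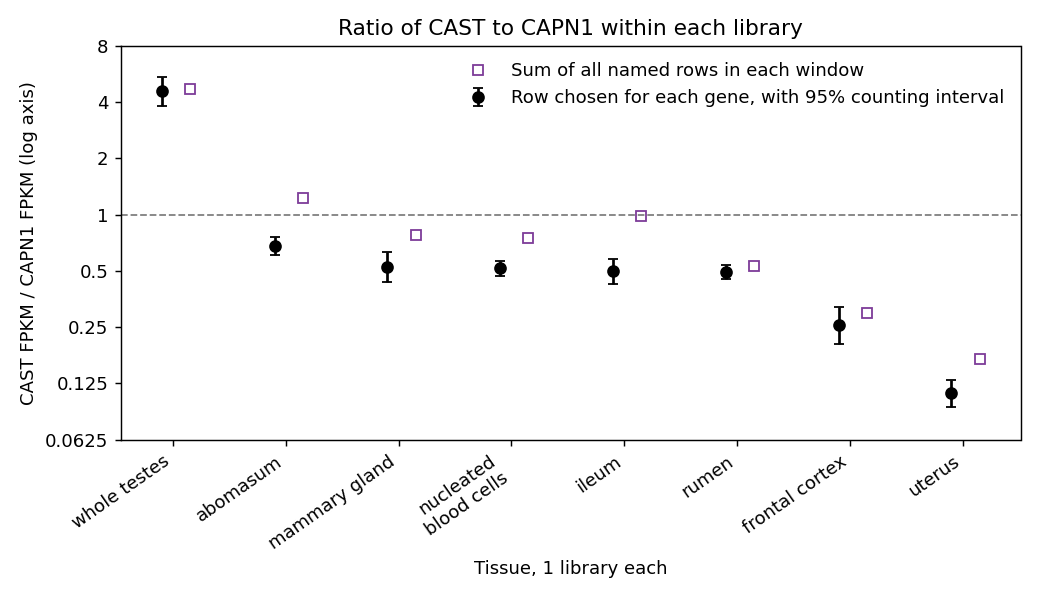
CAST FPKM divided by CAPN1 FPKM in each library on a log axis; filled points are the chosen rows with 95% counting intervals, open squares the sum of all named rows in each interval, and the dashed line marks equal levels. The filled point of whole testes is at 4.57, those of 5 tissues lie between 0.494 and 0.682, and uterus is lowest at 0.111.

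The rows that share the span of CAST bear on this ratio. The row of ENSBTAT00000018026 was at 33.0 FPKM in ileum, 30.2 in abomasum, 25.7 in nucleated blood cells and 14.7 in mammary gland. It was at 8.11 FPKM in uterus, 4.05 in rumen, 2.18 in whole testes and 1.75 in frontal cortex. This row was therefore nearly as high as CAST in ileum, at 0.967 of its level, and far below it in whole testes, at 0.0325. The library kit does not mark strand, so reads from overlapping genes on opposite strands cannot be told apart, and the part of this row in the CAST value was not tested. When all named rows in each interval were summed, the ratio in abomasum rose to 1.22 and that in ileum to 0.979, while whole testes stayed highest and uterus, at 0.169, lowest. With ENSBTAT00000018026 in place of the chosen row the ratio in whole testes was 0.148, and rumen, at 0.0356, and frontal cortex, at 0.0425, fell below uterus, at 0.0580. Both the high ratio of testes and the lowest place of uterus thus rest on the row that names 4 transcripts. The other row may be that of the next gene.

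The ratio was set beside those of other genes to CAPN1. Among 8917 other genes that reached 1 FPKM in every tissue, the ratio to CAPN1 spanned a median of 16.0-fold over the tissues, and 18.7% of genes spanned at least the 41.3-fold of CAST. The ratio to CAPN1 was highest in whole testes for 76.9% of these genes and lowest in uterus for 48.4%. The ratio of CAST to the other genes was highest in whole testes for 38.9%, lowest in frontal cortex for 60.0% and lowest in uterus for 25.7%. All of these ratios share the CAPN1 or the CAST value, and the tissues compared were picked after the members' values had been seen, so the shares are a description.

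**Figure D3:**
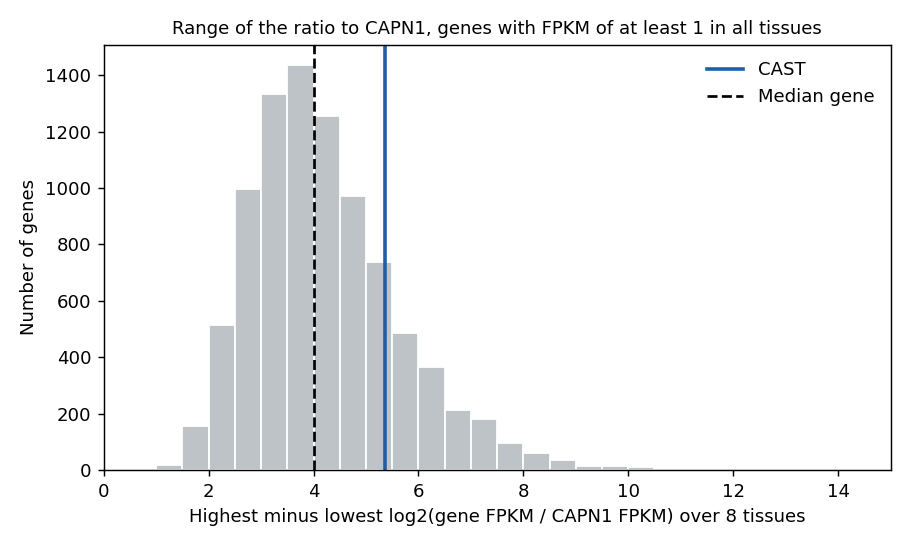
Number of genes (vertical axis) by the range of log2(gene FPKM / CAPN1 FPKM) over the 8 tissues (horizontal axis), for genes that reached 1 FPKM in every tissue. The blue line marks CAST at 5.37, to the right of the dashed line of the median gene.

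CAPN1 and CAST ranked among the more abundant genes of most libraries. Among genes that reached 1 FPKM in the same library, CAPN1 lay above 96.6% of genes in uterus, above 92.3% in nucleated blood cells and above 91.8% in rumen. Its lowest position was in whole testes, above 53.0% of 14483 genes, and the median over the 8 tissues was 90.4%. CAST lay above 86.2% of genes in whole testes and above 47.5% in frontal cortex, with a median of 80.8%. In uterus CAST lay above 60.4% of genes, and in the 5 remaining tissues above 78.7% to 84.2%. The positions depend on which genes are counted: among all genes of the table, with no lower limit, the lowest positions were above 72.6% of genes for CAPN1 and above 72.9% for CAST.

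The number of pairs of tissues that differed by at least 2-fold in FPKM + 1 was counted as a rule of size. CAPN1 passed it in 14 of 28 pairs and CAST in 12, where all genes passed it in 38.1% of their pairs and the median gene in 10 pairs. For CAPN1, whole testes passed in all 7 of its pairs, uterus in 5 and frontal cortex in 4. For CAST, frontal cortex passed in 6 of its 7 pairs, uterus in 5 and whole testes in 3. All genes passed in 53.3% of the pairs with whole testes, 43.4% of those with frontal cortex and 33.5% of those with uterus. In the 5 other tissues CAPN1 passed in 2 or 3 pairs each and CAST in 2, where all genes passed in 31.4% of the pairs with mammary gland, 31.7% with ileum, 34.1% with abomasum, 36.6% with rumen and 40.7% with blood cells. Ratios of CAST to CAPN1 differed by at least 2-fold in 16 of 28 pairs, and in 9 of the 21 pairs without whole testes. Ratios of other genes to CAPN1 did so in 56.4% of their pairs, with a median of 16 pairs for the 8917 genes, so the count for CAST is that of the median gene. Without whole testes they did so in 46.7% of pairs, with a median of 10 pairs, close to the 9 of CAST.

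On the same scale the highest tissue exceeded the lowest by 8.96-fold for CAPN1 and 5.92-fold for CAST, beside a median of 6.50-fold over 17484 genes, of which 95.3% reached 2-fold. For CAPN1 the value rested on whole testes, without which it was 3.34-fold. The tau index, which is 0 for an even level and 1 for expression in a single tissue, was 0.183 for CAPN1 and 0.188 for CAST on log2(FPKM + 1). The median gene had a tau of 0.436, and 15.5% and 16.3% of genes had a lower tau than CAPN1 and CAST. Both genes were thus above the floor in all 8 libraries, and their fold ranges were near the median. By tau they were more evenly spread than most genes, but not by pairs. CAPN1 had more 2-fold pairs than 67.9% of genes and CAST more than 55.6%. Tau on this scale depends on level, and genes of like level were not compared. For CAST these values are those of the chosen row. The other tied row, which may be that of the next gene, ran from 1.75 FPKM in frontal cortex to 33.0 in ileum. Its fold range and tau were not computed.

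The patterns of CAPN1 and CAST over the 8 tissues were then compared. Pearson's r between CAPN1 and CAST was -0.17 and Spearman's rho -0.10 on log2(FPKM + 1), over 8 points that share libraries and scaling. With the named rows of each interval summed r was -0.03, and with the other tied row for CAST it was 0.42, so the sign depends on the row. That other row may be the one of the next gene. Among 17483 other genes ordered by r with CAPN1, CAST stood at position 9164, and in the order by r with CAST, CAPN1 stood at position 12120. The position rests on single libraries: without whole testes CAST stood at 3326 of 16887 genes, and without uterus and whole testes together at 249 of 16762. The sign of r changed without whole testes (0.36) and without uterus (0.06), while without frontal cortex r was -0.49. Without uterus and rumen, the tissues farthest from the median CAPN1 level in FPKM, it was -0.10. On the log2 scale the farthest tissues were whole testes and uterus, and without them r was 0.88 and rho 0.83 over 6 tissues, which was computed once the values were known. Those 2 tissues hold the highest and the lowest ratio, so the rise of r without them is built in and shows only that r over 8 points rests on few libraries.

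**Figure D4:**
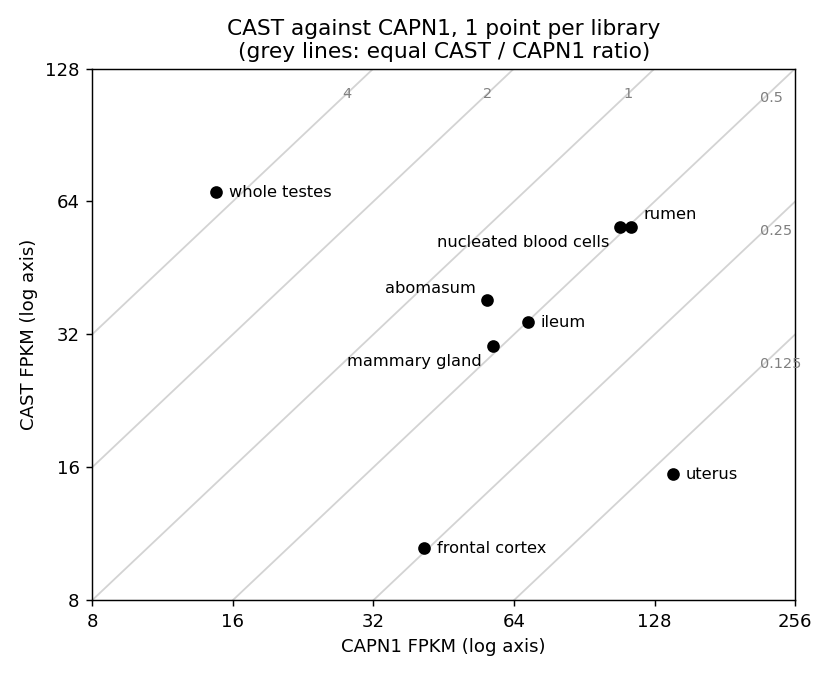
CAST FPKM against CAPN1 FPKM, both on log axes, with 1 point per library and grey lines of equal CAST to CAPN1 ratio. Rumen, nucleated blood cells, ileum, mammary gland and abomasum lie near the line of 0.5, while whole testes lie above the line of 4 and frontal cortex and uterus lie lowest.

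The gene with the pattern most like that of CAPN1 was ENSBTAT00000002646 on chromosome 11 (107161083 to 107166579, r = 0.96). It ran from 13.6 FPKM in whole testes to 42.4 in uterus. The lowest r with CAPN1, -0.96, was that of ENSBTAT00000014222 on chromosome 26 (21055939 to 21108833), at 24.2 FPKM in whole testes and listed at 0 in uterus, rumen and nucleated blood cells. For CAST the highest r, 0.98, was found for ENSBTAT00000035885 on chromosome 7 (20640565 to 20679341), which ran from 6.02 FPKM in frontal cortex to 29.8 in whole testes. The lowest r with CAST, -0.98, was that of ENSBTAT00000065181 on chromosome 18 (45704474 to 45728218), which ran from 0.654 FPKM in whole testes to 2.02 in frontal cortex. With 17483 genes ranked over 8 points, values of this size at the ends of the order are a description only, and the table pairs no symbols with these identifiers.

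The genes that flank the loci had patterns of their own. The nearest named row before CAPN1, ENSBTAT00000007590, ends 9870 bases from its span and was at 35.7 FPKM in uterus, 3.52 in whole testes and 2.63 in ileum. In the 5 other tissues it was at 0.452 FPKM or lower, so it shared the highest tissue of CAPN1 but, with r = 0.16 over the 8 tissues, not the rest of its order. After CAPN1 the next row was ENSBTAT00000013515, described above, which stayed below 0.2 FPKM in every library. Beside CAST, ENSBTAT00000001164 lies 97530 bases after the shared span and ran from 1.13 FPKM in frontal cortex to 21.2 in nucleated blood cells. The nearest row before CAST lies 245323 bases away and reached 6.41 FPKM in frontal cortex, where CAST was lowest.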

How the data were processed

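RNA-Seq libraries of 8 cattle tissues, 1 per tissue, were grouped by the tissue in their labels, and library names in the table matched the sample titles for all 8. According to the study's methods and the submitters' processing notes, the authors filtered single-end reads, aligned them to UMD3.1 with TopHat2 (2.0.13) and used Cufflinks with default settings for expression. The deposited values are FPKM, which the authors' software scales between libraries. The authors' own fold changes, test statistics, p-values and q-values for pairs of tissues were not used. No row had an FPKM that differed between pairs (0 rows).

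The members and all lists and tests were chosen with earlier results of these data known. The row with the largest overlap was taken for each gene; ties went to the row naming most transcripts and then to the first in the file. Genes were rows with an identifier. Of 26547 identifiers, 0 matched a symbol in the RefSeq table, so a list of 15 further calpain family genes and 24 tissue markers reached 0 genes. The tissue labels were therefore not checked against markers. Genes named beside the members were those with the highest or lowest r and the nearest named rows; of the 2 at each end, the most extreme is printed.

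Depth was recovered from unnamed loci of 88 to 130 bases, with fragment lengths of mean 200 and SD 80 bases and a lower limit of 87 bases, as the smallest depth that gave whole reads, within 0.03, for at least 95% of loci. These read numbers are approximate, carry no molecular identifiers and give intervals for counting error only. Alternatives covered scaling, pseudocount, fold, filters, rows and libraries left out. Statistics were tested on simulated data. Python 3.11.15, numpy 2.4.6, pandas 2.3.3, scipy 1.17.1 and matplotlib 3.10.9 were used.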

Additional observations from a re-analysis of the deposited data

Results flagged for a closer look

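The CAST to CAPN1 ratio in whole testes, 4.57, lay above 1 while the ratio in the 7 other tissues lay below 1, so the difference between both genes had the opposite direction in testes. This difference was not tested, since each tissue had 1 library. It depends on the rows taken: with all named rows summed abomasum was also above 1, at 1.22, and with the other tied row for CAST testes were below 1, at 0.148, like the rest. The other tied row may be that of the next gene.

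Unnamed loci, which entered none of the comparisons above, were found before CAPN1 on chromosome 29. One spans 44044498 to 44045713 and was at 2.34 FPKM in uterus, and the other spans 44046995 to 44047725 and was at 3.29 FPKM in uterus. In each of the 7 other tissues both are listed at 0, and there 3 reads would correspond to 0.189 to 0.487 FPKM at the first and 0.363 to 0.932 FPKM at the second. The uterus was also the highest tissue of CAPN1 and of ENSBTAT00000007590, the named row that lies between these loci and CAPN1. That row starts at 44048377, close after the second locus, while the loci lie 17569 and 15557 bases from CAPN1. The share of all unnamed loci found in 1 tissue only is not given here.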

How the results depend on the processing

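A level or ratio was taken to hold within its counting interval, r within 0.2 and any other value within 1.5 times. No paired analysis was possible because no tissue had more than 1 library. Unless an alternative's construction gives the cause, it was not tested.

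Under median ratio scaling CAPN1 was 161.6 FPKM in uterus and 96.9 in rumen, and CAST 47.8 in rumen, so that blood cells passed rumen for both genes. Under upper quartile scaling CAPN1 and CAST were 12.2 and 55.6 FPKM in testes, 166.6 and 18.4 in uterus, 67.96 and 35.6 in mammary gland, 78.6 and 39.2 in ileum, 99.8 and 49.3 in rumen, and 91.5 and 47.3 in blood cells. Uterus and testes remained the highest and lowest tissue for CAPN1, and testes and cortex for CAST, under both scalings. Summing all named rows, added for the levels after seeing the data, moved CAST to 81.7 FPKM in blood cells, 68.5 in abomasum, 67.2 in ileum, 60.2 in rumen, 44.8 in mammary gland and 23.6 in uterus, and as planned it moved the ratio past its interval in 5 tissues, to 1.22 in abomasum, 0.979 in ileum, 0.778 in mammary gland, 0.755 in blood cells and 0.169 in uterus, higher because a row is added. The other tied row for CAST, also added, was at 30.2 FPKM in abomasum, 25.7 in blood cells, 14.7 in mammary gland, 8.11 in uterus, 4.05 in rumen, 2.18 in testes and 1.75 in cortex, and gave ratios of 0.539 in abomasum, 0.254 in mammary gland, 0.238 in blood cells, 0.148 in testes, 0.0580 in uterus, 0.0425 in cortex and 0.0356 in rumen, and left ileum within its interval. By construction a fold of 3 left CAPN1 7 pairs, a fold of 1.5 gave CAST 19, and counting all genes put CAST in cortex above 72.9% of genes. With each tissue left out in turn, r ran from -0.49 to 0.36, with a change of sign without testes (0.36) or uterus (0.06), and was 0.88 without both, an added alternative. With the other tied row for CAST r was 0.42. For the chosen rows, with each tissue left out in turn, the highest over lowest FPKM + 1 ran from 3.34 to 8.96 for CAPN1 and from 4.14 to 5.92 for CAST. Tau ran from 0.140 to 0.207 and from 0.149 to 0.212. The depth limits the low rows of the CAPN1 interval, where fewer than 3 reads on 1000 bases cannot be told from 0.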
